A study of Mus musculus with 10 samples.

Results

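The MHC class II antigen presentation genes were read from 16 probe sets of 45101 on the array, namely all probe sets that the platform annotation assigns to 1 gene symbol among 9 chosen members: H2-Aa, H2-Ab1, H2-Eb1, H2-DMa, H2-DMb1, H2-Oa, H2-Ob, Cd74 and Ciita. Of these 9 genes, 8 had such a probe set. H2-DMb1 had none, because the array reads it only together with its neighbour H2-DMb2. The arrays measured total RNA of whole lungs from 10 adult female C57BL/6 mice, 1 animal per Affymetrix Mouse430_2 array. Starting at 8 weeks of age, 5 mice drank water with 50 ppm arsenic for 12 weeks, and 5 controls drank deionized water (0 ppm) over the same time. No genetic modification is recorded for either group. The series names the compound as arsenate and the samples name it as arsenite, so the exposed group is called arsenic here. All arsenic titles carry one first number and all control titles another; should it stand for housing or handling, its effect and the exposure cannot be told apart.

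MHC class II molecules are pairs of an alpha and a beta chain that display peptides from engulfed proteins to CD4+ T cells. The invariant chain Cd74 fills their groove on the way to the endosome, where H2-DM exchanges its last fragment for a peptide and H2-O, found chiefly in B cells, restrains H2-DM. Ciita is the coactivator of class II transcription, and how far each member depends on it was not tested here. In the lung they are expressed by dendritic cells, B cells and macrophages, and also by alveolar type 2 cells. C57BL/6 mice carry the b haplotype, in which the H2-Ea gene is not functional, so they make the I-A molecule (H2-Aa with H2-Ab1) and no I-E molecule, although H2-Eb1 is transcribed.

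The promoters of class II genes share an X box, bound by RFX, and a Y box, bound by NF-Y, and Ciita acts through the proteins on these boxes. They are shown because 5 of the 6 members with a promoter window held this arrangement. H2-Ab1, Cd74 and Ciita had no window, so it was not looked for in them. RefSeq promoter windows (GRCm38.p6) matched 6 of the 9 members, with 7 windows, and 5 genes held an X core (GNAAC) followed by a Y core (TGATTGG) within 20 to 40 bases of it, counted from start to start in the 250 bases before the transcription start. The cores are in capitals, each line reads 5′ to 3′ on the strand of the gene, and the cores do not overlap. All 5 genes lie on chromosome 17.
H2-Aa, chr17:34287861-34287912, minus strand: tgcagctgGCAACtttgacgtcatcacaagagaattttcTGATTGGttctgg
H2-Eb1, chr17:34305768-34305818, plus strand: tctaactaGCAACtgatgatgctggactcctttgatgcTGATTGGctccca
H2-DMb1, chr17:34153089-34153140, plus strand: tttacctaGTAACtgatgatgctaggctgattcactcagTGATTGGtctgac
H2-Oa, chr17:34092295-34092346, plus strand: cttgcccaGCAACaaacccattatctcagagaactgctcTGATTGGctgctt
H2-Ob, chr17:34238810-34238858, plus strand: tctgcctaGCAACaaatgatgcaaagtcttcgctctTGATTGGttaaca

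The X core began 76 to 94 bases before the start of these genes and the Y core 45 to 63 bases before it, 28 to 31 bases after the X core. Neither window of H2-DMa held the pair or a Y core. Searched on both strands, the pair in this order was found in 159 of 32851 RefSeq windows of the same length, or 0.484%, a Y core, with or without an X core, in 7.23% and an X core in 79.6%. These motif letters were chosen with the sequences in view, and a match is a description of the letters only.

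Array medians ran from 4.11 to 4.26, and any pair of the 10 arrays correlated at 0.990 to 0.997 over the probe sets. All values below are log2 values, and the number of arrays limits their precision. Tests covered the 22495 probe sets above 4.20, the median of all deposited values, on 5 or more arrays. Of the 16 member probe sets, 13 passed this filter, covering all 8 genes. The other 3, 1 of H2-DMa and 2 of Ciita, were dim.

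In arsenic lungs no class II gene passed the test, and all 8 measured genes had a lower mean than in control lungs. By limma with Benjamini-Hochberg adjustment over all tested probe sets, 0 of the 13 member probe sets passed an adjusted p of 0.05, against 0.44% of all tested probe sets (99 of 22495, and between 12 and 97 when 1 array was left out). At an unadjusted p of 0.05 there were also 0 of 13, against 17.2% of all tested, and an exact permutation test over all 252 splits of the arrays gave 0 of 16 (p from 0.119 to 0.873), against 17.7% of all 45037 probe sets at an unadjusted p of 0.05. Without the filter, limma called 0 of the 16 member probe sets, against 0.0422% of all 45037. The difference, arsenic minus control, was below 0 for 13 of 13 tested probe sets (44.7% of all tested) and for the 3 dim ones too. These probe sets share animals and several share a gene, so they are not independent. The median difference of the 13 was -0.18, beside a median of 0.026 over all tested probe sets. The arsenic and control values overlapped for 13 of 13, whereas they did not overlap for 3.86% of all tested probe sets. The 95% confidence intervals had half-widths of 0.21 to 0.73 on the log2 scale.

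**Figure D1:**
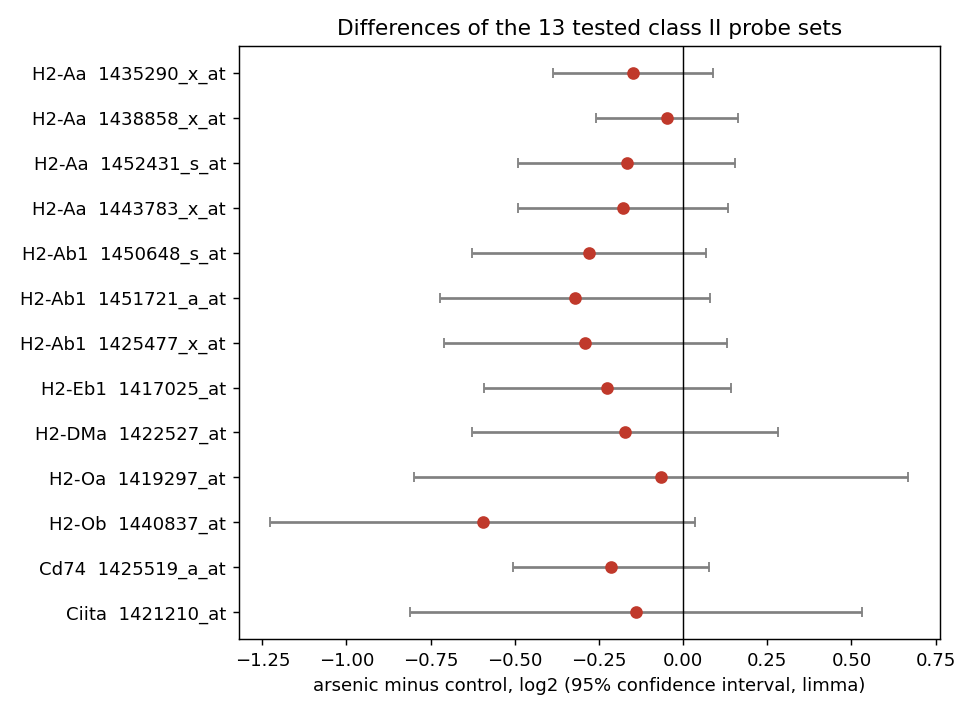
Difference in log2 value, arsenic minus control, of each tested class II probe set (points) with its 95% confidence interval from limma (bars). All 13 points lie left of 0, from -0.60 for H2-Ob to -0.047 for 1 probe set of H2-Aa, and all 13 intervals include 0.

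H2-Ab1 and H2-Aa encode the chains of I-A, the class II molecule that C57BL/6 mice display. H2-Ab1, the beta chain, was at 12.38, 11.97, 12.33, 12.11 and 12.45 in arsenic animals 1 to 5, against 12.48, 12.94, 12.55, 12.04 and 12.63 in control animals 1 to 5 (probe set 1450648_s_at). Control animals 1, 2, 3 and 5 were above all 5 arsenic animals, and control animal 4 was below 4 of them. The means were 12.25 ± 0.20 with arsenic and 12.53 ± 0.32 in controls (SD, n = 5 each), a difference of -0.28 (SE 0.16, 95% interval -0.63 to 0.068, limma adjusted p = 0.373). The other probe sets of H2-Ab1 gave -0.32 (1451721_a_at) and -0.29 (1425477_x_at), and the 3 moved together over the animals, with correlations of 0.974 to 0.994 between their deviations from the group means.

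H2-Aa, the alpha chain of I-A, was at 14.30, 13.99, 14.24, 13.98 and 14.39 with arsenic, against 14.27, 14.51, 14.27, 14.14 and 14.46 in controls (1435290_x_at). Arsenic animals 2 and 4 had the lowest values, and the other 3 lay within the range of the controls. The difference was -0.15 (SE 0.11, limma adjusted p = 0.476). Its other 3 tested probe sets gave -0.18 (1443783_x_at), -0.17 (1452431_s_at) and -0.047 (1438858_x_at). The names of all 4 probe sets of H2-Aa end in _x_at or _s_at, the maker's mark for probes that can also bind related transcripts. So do 1450648_s_at and 1425477_x_at of H2-Ab1, but not 1451721_a_at.

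H2-Eb1, the I-E beta chain, which has no I-E alpha partner in this strain, was at 12.95, 12.53, 12.95, 12.67 and 13.14 with arsenic, against 13.17, 13.52, 13.05, 12.62 and 13.00 in controls (1417025_at). Its groups overlapped, with control animal 4 among the lowest of all 10 and arsenic animal 5 above 3 of the 5 controls. The means were 12.85 ± 0.24 and 13.07 ± 0.32 in arsenic and control lungs, a difference of -0.23 (SE 0.17, limma adjusted p = 0.489). The 3 probe sets of H2-Ea, the missing partner, stayed below the filter on all 10 arrays, with means of 2.32 to 3.15 in arsenic lungs and 2.34 to 3.15 in control lungs. H2-Eb2, another beta-chain gene, was equally below the filter, at 2.50 ± 0.12 with arsenic and 2.52 ± 0.14 in controls (n = 5 each).

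Cd74, the invariant chain, was at 13.62, 13.35, 13.69, 13.41 and 13.80 with arsenic, against 13.71, 14.08, 13.85, 13.42 and 13.88 in controls (1425519_a_at). Control animals 2 and 5 and, by a small margin, control animal 3 were above all arsenic animals, while control animal 4 lay beside the lowest arsenic values. The means were 13.58 ± 0.19 and 13.79 ± 0.24 in arsenic and control lungs, a difference of -0.21 (SE 0.13, 95% interval -0.51 to 0.078, limma adjusted p = 0.411).

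**Figure D2:**
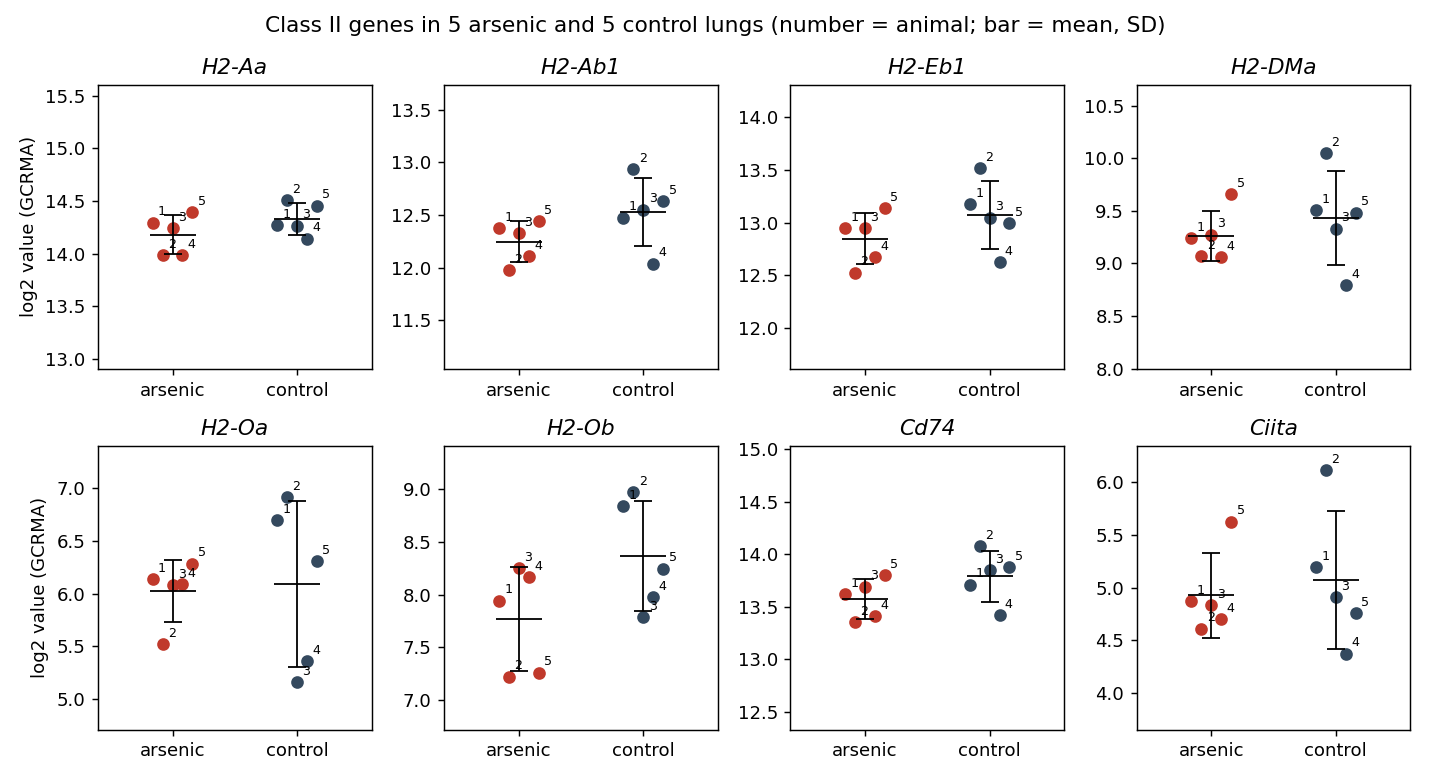
log2 value of each class II gene (brightest tested probe set) in the 5 arsenic and 5 control lungs. Points are animals with their number, and bars give the mean and SD; every panel spans the same log2 width, and the groups overlap in all 8.

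H2-DMa, the alpha chain of the peptide exchanger H2-DM, was at 9.24, 9.07, 9.27, 9.06 and 9.66 with arsenic, against 9.51, 10.05, 9.33, 8.79 and 9.48 in controls (1422527_at). The controls held both the highest and the lowest animal. The difference was -0.17 (SE 0.21, limma adjusted p = 0.671). A dim second probe set, 1459872_x_at, had a mean of 3.65 in arsenic lungs and 3.89 in control lungs and passed the filter's level on 1 of 10 arrays, so it was not tested. The beta chain of H2-DM is read by 2 probe sets annotated to both H2-DMb1 and H2-DMb2, which do not belong to a single member. They gave differences of -0.26 (1418638_at, limma adjusted p = 0.453) and -0.17 (1449580_s_at, adjusted p = 0.623), and their deviations over the 10 animals correlated with those of H2-DMa at 0.860 and 0.980. The brightest probe set annotated to H2-DMb2 alone (1443687_x_at) was at 9.19 ± 0.20 with arsenic and 9.39 ± 0.33 in controls (n = 5 each, limma adjusted p = 0.518). Its difference was -0.20, and the other tested probe sets of H2-DMb2 gave smaller ones. These were -0.14 (1419744_at, limma adjusted p = 0.744) and -0.060 (1443686_at, limma adjusted p = 0.856).

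H2-Ob and H2-Oa encode the chains of H2-O, the inhibitor of H2-DM. H2-Ob, the beta chain, was at 7.94, 7.22, 8.25, 8.16 and 7.26 with arsenic, against 8.84, 8.97, 7.78, 7.97 and 8.25 in controls (1440837_at). Control animals 1 and 2 stood above all others, arsenic animals 2 and 5 below all others, and the remaining 6 were mixed. The means were 7.77 ± 0.50 with arsenic and 8.36 ± 0.52 in controls, a difference of -0.60 (SE 0.29, limma adjusted p = 0.312), or 0.66-fold with an interval of 0.43 to 1.02. A second probe set annotated to H2-Ob and Gm20506 was below the filter on all 10 arrays.

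H2-Oa, the alpha chain, was at 6.14, 5.52, 6.08, 6.09 and 6.28 with arsenic, against 6.70, 6.92, 5.16, 5.36 and 6.31 in controls (1419297_at). The controls spanned 1.76 and enclosed all 5 arsenic animals. Its difference was -0.067 (SE 0.33, interval -0.80 to 0.67, limma adjusted p = 0.929), and its sign turned without arsenic animal 2 (0.059), control animal 1 (0.086) or control animal 2 (0.14) and with quantile normalization (0.013). That the difference of H2-Ob and that of H2-Oa are unequal was not tested.

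Ciita, the coactivator, was at 4.87, 4.61, 4.84, 4.70 and 5.63 with arsenic, against 5.20, 6.11, 4.91, 4.37 and 4.76 in controls (1421210_at). Apart from arsenic animal 5 and control animals 1 and 2, all animals lay between 4.37 and 4.91. The difference was -0.14 (SE 0.30, limma adjusted p = 0.827), and 0.12 without control animal 2. The 2 dim probe sets of Ciita were at 3.00 ± 0.22 and 3.15 ± 0.18 (1421211_a_at) and at 2.53 ± 0.024 and 2.56 ± 0.016 (1447075_at) in arsenic and control lungs.

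The 8 genes shared much of their order of animals. Control animal 2 had the highest value of all 10 for 8 of 8 genes, and the lowest value fell to arsenic animal 2 for 4 genes, to control animal 4 for 2, and to arsenic animal 4 and control animal 3 for 1 each. The mean of the 8 genes was 10.18, 9.78, 10.21, 10.02 and 10.33 in arsenic animals 1 to 5, against 10.48, 10.89, 10.11, 9.84 and 10.35 in control animals 1 to 5. The mean difference over the 8 genes was -0.23, while the spread of this mean within groups was 0.32 (pooled SD). It was -0.092 without control animal 2 and -0.35 without control animal 4. In bulk tissue, fewer cells of a type and less RNA per cell cannot be told apart.

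**Figure D3:**
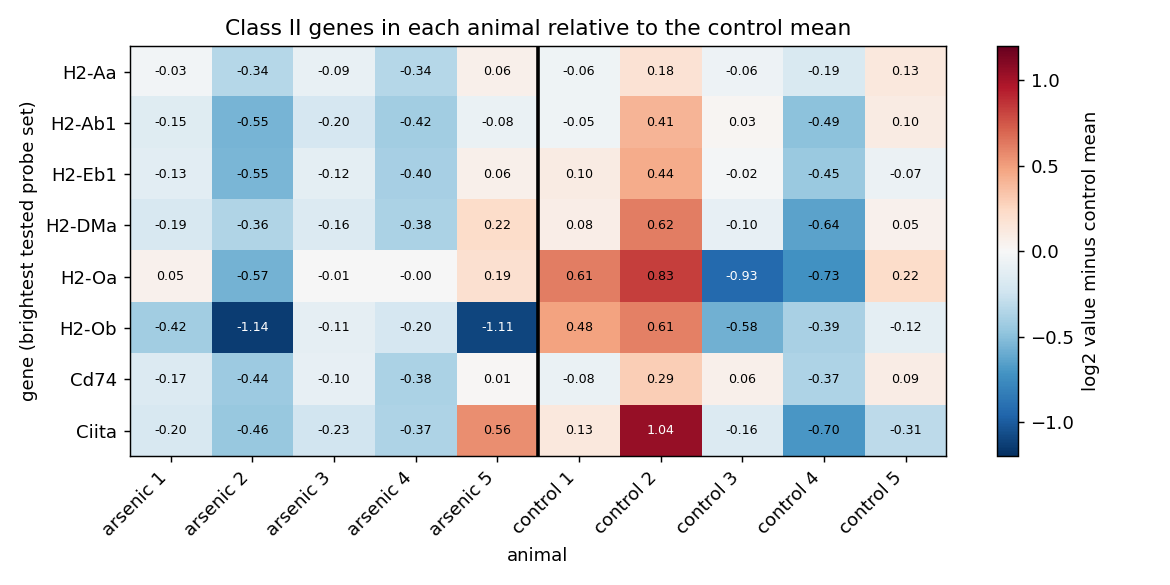
log2 value of each class II gene (rows) in each animal (columns, arsenic left, control right) minus the mean of the 5 control animals. Control animal 2 is positive in all 8 rows, and arsenic animals 2, 3 and 4 and control animal 4 are negative in all 8 rows (arsenic animals 3 and 4 by less than 0.01 for H2-Oa).

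Over the 10 animals, the deviations from the group means correlated positively for all 28 pairs of genes, with Pearson r between 0.211 and 0.975 and a median of 0.784. These are descriptions over 10 arrays that share tissue and normalization, and the correlations with marker levels below use deviations from the group means in the same way. H2-Ab1 and Cd74 were the closest pair (r = 0.975), and Ciita was closest to H2-DMa (0.944). H2-Ob stood apart. Its r was 0.211 with H2-Aa, 0.271 with Cd74, 0.346 with Ciita and 0.744 with H2-Oa.

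H2-Ob was the member whose values lay closest to the level of B-cell markers. The mean of the 11 tested of 15 listed B-cell markers was 7.29, 6.98, 7.53, 7.56 and 6.99 in arsenic animals, against 7.99, 7.94, 7.08, 7.14 and 7.17 in control animals, and control animals 1 and 2 were above all others. H2-Ob moved with this mean, with r = 0.947 and rho = 0.842 over 10 animals, 0.983 within the arsenic group, 0.961 within the controls and 0.946 without control animals 1 and 2. H2-Oa had r = 0.748 (0.514 without control animals 1 and 2), H2-Eb1 0.496, Ciita 0.450, H2-DMa 0.412, H2-Ab1 0.359, Cd74 0.224 and H2-Aa 0.118. Within the controls r was 0.780 for Ciita, 0.742 for H2-Eb1 and 0.682 for H2-DMa, and within the arsenic group -0.430, -0.030 and -0.411. H2-Ob also moved with the mean of 6 tested T-cell markers, with r = 0.804 and rho = 0.745, 0.852 within the arsenic group, 0.819 within the controls and 0.867 without control animals 2 and 4. With the B-cell level in the fit, a choice made after its values were seen, H2-Ob had a difference of -0.35 (limma adjusted p = 0.279) and the mean over the 8 genes was -0.13. The part of B-cell number in these results was not tested further.

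H2-Ab1, H2-Eb1, H2-DMa, Cd74 and Ciita moved more closely with the class I genes than with B cells. The mean of 15 tested class I genes gave r = 0.968 with H2-Eb1 (rho 0.952, and 0.936 without control animals 2 and 4). With class I genes r was 0.912 for Ciita, 0.898 for Cd74, 0.898 for H2-DMa and 0.893 for H2-Ab1, but 0.340 for H2-Ob. Without control animals 2 and 4 it was 0.801 for Ciita, 0.799 for Cd74, 0.776 for H2-DMa and 0.773 for H2-Ab1. H2-Aa had r = 0.810 with class I genes, and 0.732 without these animals. For the mean of 8 tested dendritic-cell markers r was 0.838 with Ciita (0.775 without arsenic animal 5 and control animal 4), 0.827 with H2-DMa, 0.787 with H2-Eb1 and -0.052 with H2-Ob. With the mean of the 8 genes, r was 0.870 for class I genes, 0.717 for T-cell, 0.679 for dendritic-cell, 0.646 for B-cell, 0.205 for type 2, -0.092 for monocyte and interstitial macrophage and -0.105 for alveolar macrophage markers. Without the 2 animals farthest from the median of each level, it was 0.679 for class I genes, 0.185 for T-cell, 0.637 for dendritic-cell and 0.412 for B-cell markers. For type 2 markers the r of single members ran from -0.474 for H2-Ob to 0.475 for H2-Aa. Without arsenic animal 4 and control animal 4 these values were -0.704 and -0.0029. H2-Aa had r = 0.838 with type 2 markers within the controls and 0.304 within the arsenic group.

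**Figure D4:**
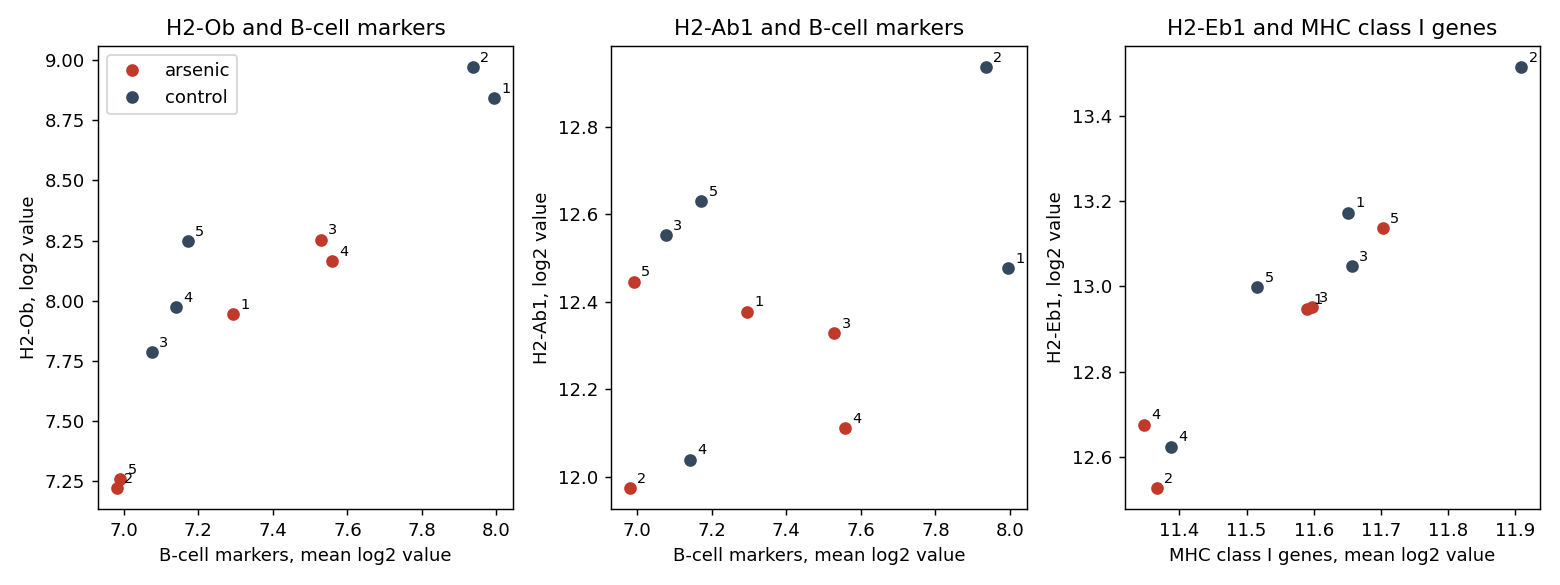
log2 values of H2-Ob and H2-Ab1 against the mean log2 value of B-cell markers, and of H2-Eb1 against that of class I genes, in each animal (red, arsenic; dark, control; numbers, animals). The r of deviations from the group means was 0.947 for H2-Ob, 0.359 for H2-Ab1 and 0.968 for H2-Eb1.

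Among 11324 other genes, the 8 whose deviations over the 10 animals were most like the mean standardised deviation of the members were Ccl5 (r = 0.969), Psmb9 (0.966), B3gnt9 (0.965), Spn (0.946), Nkg7 (0.941), H2-M3 (0.931), Dact3 (0.930) and Nlrc5 (0.927). Psmb9 is an immunoproteasome subunit and Nlrc5 is the class I counterpart of Ciita. Ccl5 is a T-cell attractant, Nkg7 a protein of cytotoxic granules, and Spn a sialylated leukocyte surface protein. Of their own differences, arsenic minus control, 6 of 8 were negative, among them B3gnt9 at -0.28 and Psmb9 at -0.23, while Ccl5 was at 0.12 and Nkg7 at 0.46, and none of the 8 passed (limma adjusted p from 0.260 for B3gnt9 to 0.953 for Spn).

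Over 5 lists of further pathway genes, 0 of 51 tested genes passed the limma threshold (0.415% of all genes did) and 4 had an unadjusted p under 0.05 (15.3% of all genes), and the smallest adjusted p was 0.168. Of the 12 enzymes and regulators of class II peptide loading, 3 had a negative difference, and their median was 0.082, against 0.057 for all genes. The cathepsin Ctsl, a protease that trims the invariant chain, was at 13.11 ± 0.07 with arsenic and 12.77 ± 0.20 in controls (n = 5 each; limma adjusted p = 0.168). Ifi30, the thiol reductase of the endosome, was at 11.51 ± 0.18 and 11.22 ± 0.20 (adjusted p = 0.261) and Ctsh, another cathepsin, at 13.94 ± 0.26 and 13.69 ± 0.10 (adjusted p = 0.322) in arsenic and control lungs. Ctss, the main invariant-chain protease of dendritic and B cells, had a difference of 0.099 (limma adjusted p = 0.517); it was picked with its value known.

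Transcription factors and interferon-gamma signalling genes (18 tested of 21 listed) had a median difference of -0.007, with 10 negative. Creb1, one of the factors on the X box region, was at 8.85 ± 0.47 with arsenic and 9.42 ± 0.33 in controls (limma adjusted p = 0.256). Irf8, a factor of dendritic cells, B cells and macrophages, was at 9.56 ± 0.09 and 9.81 ± 0.28 (adjusted p = 0.326), and the kinase Jak2 at 8.57 ± 0.31 and 8.90 ± 0.28 (adjusted p = 0.340), in arsenic and control lungs. The factors that bind the X and Y boxes had small differences: Rfx5 0.064, Rfxap 0.020, Rfxank 0.097, Nfya -0.010, Nfyb 0.081 and Nfyc 0.089. These 6 were picked with their values known. Ifng, the cytokine that induces Ciita, was below the filter, at 2.53 ± 0.04 with arsenic and 2.54 ± 0.03 in controls.

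Co-stimulatory genes and class II partners (5 tested of 9 listed) had a median of 0.027. Cd83, a marker of mature dendritic cells that stabilises class II molecules, was at 8.86 ± 0.22 with arsenic and 9.19 ± 0.21 in controls (limma adjusted p = 0.251). Icosl had a difference of 0.19 and Cd40 of 0.11 (adjusted p = 0.380 and 0.731). Class I genes (15 tested) had a median difference of -0.12, and 13 of the 15 were negative, beside 36.8% of all genes. The calnexin gene Canx, the calreticulin gene Calr and Pdia3, chaperones of class I folding, had differences of -0.18, -0.17 and -0.15, with a limma adjusted p of 0.403 for both Canx and Calr.

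**Figure D5:**
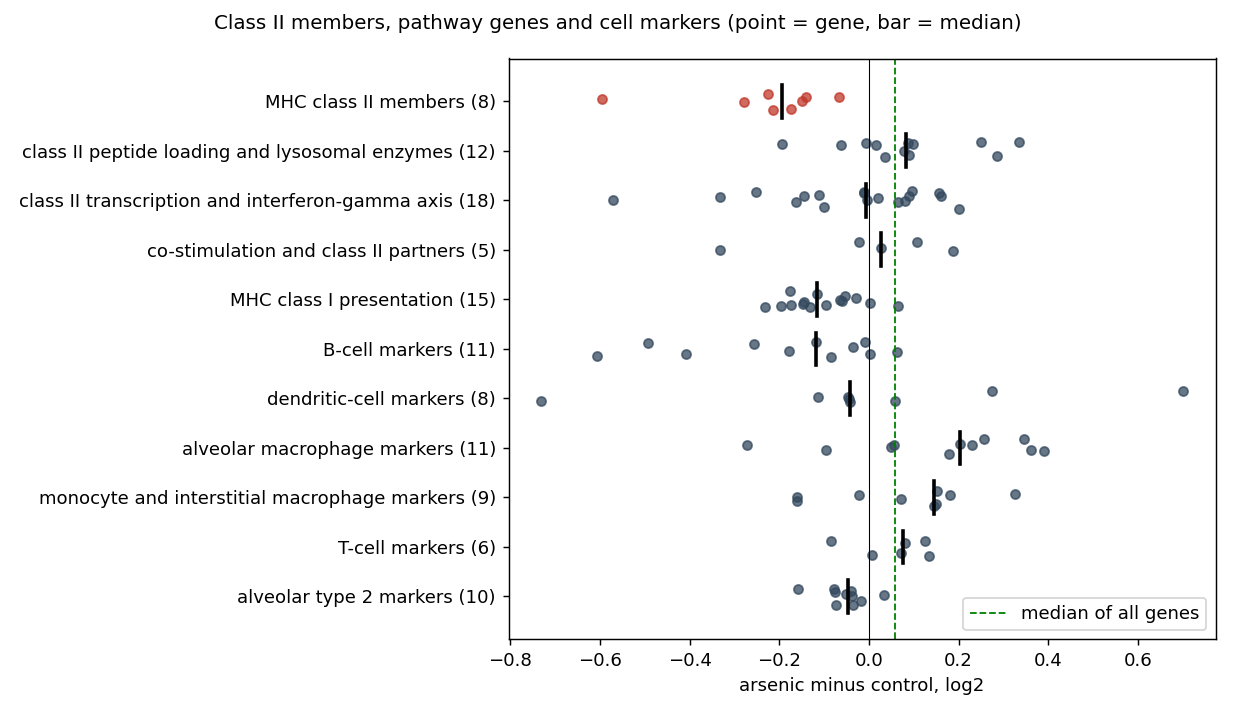
Difference in log2 value, arsenic minus control, of the 8 class II genes (red) and of the genes of 10 pathway and cell marker lists (dark). Points are genes, with the number tested in brackets, black bars are medians, and the dashed line is the median of all genes (0.057); the class II median is -0.19.

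Over 8 lists, of cell markers and of the kidney transcripts described below, 0 of 70 tested genes passed the limma threshold. Of these genes, 14 had an unadjusted p under 0.05. Over all genes the shares were 0.415% and 15.3%. The kidney list held 6 of the 14 among its 13 tested genes. B-cell markers had a mean level of 6.98 to 7.56 in arsenic lungs and 7.08 to 7.99 in control lungs. Their median difference was -0.12, with 9 of 11 negative, and Cr2, Pax5 and Blk were below the filter. Ebf1 had a difference of -0.49, Fcer2a of -0.61 and Ms4a1 of -0.41 (adjusted p = 0.250, 0.327 and 0.512), and the bright Cd79b and Cd22 of -0.009 and -0.036.

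Dendritic-cell markers (8 tested of 14 listed) had a mean level of 7.38 to 7.66 in arsenic lungs and 7.32 to 7.53 in control lungs, and their members pointed both ways. Ccr7, the receptor of migrating dendritic cells, which lymphocytes also carry, was at 6.95 ± 0.38 with arsenic and 7.68 ± 0.52 in controls (limma adjusted p = 0.204). Cd209a, a lectin of conventional dendritic cells, was at 8.01 ± 0.50 and 7.30 ± 0.38 in arsenic and control lungs (adjusted p = 0.207). Itgax, found on dendritic cells and alveolar macrophages, had 0.057, Ly75 -0.11, Zbtb46 -0.045 and Fscn1 -0.042. Flt3, Xcr1, Batf3, Siglech and Cd207 were below the filter.

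Alveolar macrophage markers had a median difference of 0.20, with levels of 9.96 to 10.35 in arsenic lungs and 9.79 to 10.22 in control lungs. Marco had 0.36, Pparg 0.39 and Chil3 0.26 (limma adjusted p = 0.193, 0.227 and 0.254), and the bright Car4 and Plet1 had 0.056 and 0.18. Of the 11 tested of 15 listed markers, 2 were negative, Fabp1 at -0.27 and Mrc1 at -0.095. Monocyte and interstitial macrophage markers (9 tested) had a median of 0.14, and their members pointed both ways. Adgre1 was at 0.33 (limma adjusted p = 0.224), Csf1r at 0.15, Ms4a7 at 0.18 and C1qb at 0.14. The 3 negative ones were Cx3cr1 and Ccr2, both at -0.16, and Cd14 at -0.021. T-cell markers (6 tested) had a median of 0.076, with Cd3d at 0.14, Cd3e at -0.085, Il7r at 0.080, Cd2 at 0.0072 and Thy1 at 0.073. The erythroid markers Slc4a1 and Alas2, 2 tested of 7 listed, had 0.48 and 0.17 (limma adjusted p = 0.267 and 0.533). Hba-a1 and Epb42 were below the filter, with differences of -0.013 and -0.064. Type 2 markers had a median of -0.046, with Sftpc at -0.051, Sftpa1 at -0.036, Sftpd at -0.074, Abca3 at -0.077 and Muc1 at -0.16.

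Transcripts that mark kidney differed between these lung samples. The mean of 13 tested of 28 listed kidney transcripts was 7.81, 7.55, 7.53, 8.93 and 7.04 in arsenic animals 1 to 5, against 5.19, 6.50, 7.04, 7.89 and 6.33 in control animals 1 to 5. It was highest in arsenic animal 4 and lowest in control animal 1, and 12 of its 25 genes with a probe set, among them Slc12a3, Aqp2 and Nphs1, were below the filter. Kap had a difference of 2.78, Fxyd2 of 1.82, Cdh16 of 0.59 and Ttc36 of 0.55, while Lrp2 had -0.036 and Slc13a3 0.42 (limma adjusted p = 0.369, 0.191, 0.220 and 0.163 for the first 4). Its r with the mean of the 8 class II genes was -0.56, and -0.29 without arsenic animal 4 and control animal 4. The part of these transcripts in the class II values was not tested beyond the following fit. With this level as a covariate, the mean difference of the 8 genes was 0.012 in place of -0.23, H2-Ob had -0.47 and H2-Ab1 -0.10, and H2-DMa (0.13), H2-Oa (0.41) and Ciita (0.23) turned positive. No member probe set passed in this fit (smallest limma adjusted p = 0.437). The kidney level itself was higher with arsenic, with means of 7.77 ± 0.70 against 6.59 ± 0.99 in controls (SD, n = 5 each). The fit therefore cannot tell the kidney level and the exposure apart.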

How the data were processed

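The authors deposited 1 table of log2 values of 45101 probe sets on 10 arrays. The submitters' processing notes name GCRMA, which corrects background by probe sequence, normalizes arrays and summarises each probe set, with a version not given in the sources used here. Their range, 0.619 to 16.3, fits a log2 scale. GCRMA pulls dim probe sets towards a floor, which shrinks their differences.

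Members, gene lists and tests were chosen with earlier results of these data known. Probe sets with 1 symbol in the platform annotation named a gene (34958), and the 64 control probe sets were left out. The 2 groups were fitted in limma 3.58.1 (lmFit, eBayes; R 4.3.3; 2.65 prior degrees of freedom) without covariates, with p-values adjusted over all 22495 kept probe sets. A gene of a list was read from the brightest of its kept probe sets. Named were all member probe sets, the 3 genes with the smallest p of each list, the brightest markers of cell lists, and the 8 genes most like the members. The fit was tested on simulated data. Alternatives were other filters, 1 probe set per gene, median centring, quantile normalization, robust or trended eBayes, a replicate block, array weights, covariates and leaving out arrays. Replicates are separate animals by their numbers in the labels. Figures used matplotlib 3.10.9.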

Additional observations from a re-analysis of the deposited data

Results flagged for a closer look

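In 7 of 58 groups of 5 animals examined, 1 animal stood far from the other 4, where chance flags about 1 in 20 groups; the members move together, so these groups are not independent. In arsenic animal 2, H2-Oa was at 5.52 (next lowest 6.08) and the dim probe set 1421211_a_at of Ciita at 2.61 (next lowest 3.06). In arsenic animal 5, Ciita (1421210_at) was at 5.63 (next highest 4.87) and the mean of dendritic-cell markers at 7.66 (next highest 7.43). In arsenic animal 4, the dim probe set 1459872_x_at of H2-DMa was at 3.22 (next lowest 3.74). In control animal 2, Ciita (1421211_a_at) was at 3.47 (next highest 3.11) and the mean of co-stimulatory genes and class II partners at 7.37 (next highest 7.01).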

How the results depend on the processing

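Under all 23 other settings of the limma fit, 0 member probe sets and 0 list genes passed, and the smallest adjusted p of a member ranged from 0.209 (without control replicate 4) to 0.593 (without arsenic replicate 2). The mean difference of the 8 member genes ran from -0.35 to -0.092 when 1 array was left out. It was -0.072 without arsenic animal 4 and control animal 2, 0.012 with the kidney level in the fit, and, in alternatives chosen after seeing the data, -0.13 with the B-cell level and 0.0040 without control animals 1 and 2. Of 384 member values under the alternatives, 360 kept their sign and 24 turned it. Many of the 360 could not turn, because several settings change the test and leave the difference as it is. These were the other filters, 1 probe set per gene, robust or trended eBayes, the replicate block and the permutation test. The 360 are therefore no measure of how stable the signs are, and the cause of the turned signs was not tested. Leaving out 1 array moved H2-Aa (1438858_x_at) between -0.081 and 0.011, H2-Oa between -0.30 and 0.14 and Ciita (1421210_at) between -0.31 and 0.12. Quantile normalization gave H2-Oa 0.013, and median centring gave H2-Aa (1438858_x_at) 0.016 and the dim Ciita 1447075_at 0.039. With the kidney level the turned values were H2-Aa (1438858_x_at) 0.012, H2-DMa 0.13 and 0.11, H2-Oa 0.41 and Ciita 0.23, and with the B-cell level H2-Oa 0.16. Without arsenic animal 4 and control animal 2 they were H2-Aa (1438858_x_at) 0.017, H2-DMa 0.032, H2-Oa 0.12 and Ciita 0.18. Without control animals 1 and 2 they were H2-Aa 0.038 (1438858_x_at) and 0.014 (1443783_x_at), H2-DMa 0.058, H2-Oa 0.41 and Ciita 0.25.

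The count over the whole table, 99, was 19 without a filter, 54 with 1 probe set per gene, 167 with array weights, 3 with the kidney level, 21 with the B-cell level, 3 without control animals 1 and 2 and 0 without arsenic animal 4 and control animal 2. Leaving out 1 array gave 12 (control 1) to 97 (arsenic 4), with 24, 29 and 13 without arsenic replicates 2, 3 and 5 and 23, 18 and 43 without control replicates 2, 3 and 4. With the replicate block the count was 4. The deviations of 1 of 5 same-numbered pairs correlated above 0.1 (range -0.26 to 0.146), and pairs with unlike numbers were not compared. These values cannot decide whether the numbers 1 to 5 pair the animals.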
